A study of Mus musculus with 4 samples.

Results

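V5-tagged Foxr2 gave reproducible signal at 1721 intergenic sites in cells of a mouse Foxr2 p53LOF brain tumour line, out of 11947 sites called in both replicates (14.4%). A site was the stretch of bases shared by a V5 peak of replicate 1 and a V5 peak of replicate 2. An intergenic site lay over 1 kb from every transcript start in the GENCODE M21 annotation and outside every protein-coding gene. The members were chosen by their measured values, a fold above 6 over the library background in both replicates, so their folds are given as a description only. The other 10226 sites lay at starts of protein-coding genes (8008), inside protein-coding genes away from any start (1719) or at starts of other genes only (499).

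The 2 groups were neurosphere lines from in utero electroporated C57BL/6J mice. The 2 Foxr2 p53LOF libraries (genotype label FOXR2 P53LoF) came from a line grown from a tumour in which V5-tagged FOXR2 and GFP were expressed from an integrating piggyBac vector with the CAG promoter, which is active in most cell types, and Trp53 was disrupted by Cas9 and a guide RNA. All cells were lightly crosslinked with formaldehyde before CUT&RUN. The 2 control libraries came from a model labelled H3.3G34R that carries no V5 tag and were treated with the same V5 antibody, so they differ from the Foxr2 p53LOF libraries in genotype as well as in the tag. Nothing in the labels says that the replicates of a group were separate lines, so the spread between them may be technical, and the binding is that of an overexpressed, tagged protein in 1 cultured line.

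FOXR2 belongs to the forkhead family, whose members bind DNA through a winged-helix domain, and its ectopic expression is known from embryonal brain tumours and other cancers. CUT&RUN tethers a nuclease to an antibody bound to chromatin in permeabilised cells, so that DNA around the bound protein is cut and released for sequencing. Much of the intergenic DNA that transcription factors occupy consists of enhancers, elements that act on gene promoters over distances of many kilobases and that are often specific to a cell type. SOX10, OLIG1 and OLIG2 are transcription factors of the oligodendrocyte lineage, NFI factors act in glial development, and AP-1 (FOS and JUN) and ETS factors respond to growth factor and MAPK signalling.

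The sequences at the 6 strongest intergenic sites that held a named motif within 100 bp of the midpoint between the replicate summits are shown first, to make the DNA within the sites of strongest V5 signal visible. These 6 were found among the 22 strongest sites that were read, and the other 16 held none of the 22 motifs there. Each line gives 92 bases of the + strand of mm10 (GRCm38.p6), named by the nearest protein-coding gene, and capitals mark the named motifs:
Zfp239, chr6:117879836-117879927, AP-1: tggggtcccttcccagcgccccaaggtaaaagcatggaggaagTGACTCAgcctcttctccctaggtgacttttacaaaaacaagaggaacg
Ppp2r2a, chr14:67135667-67135758, start of the REST element: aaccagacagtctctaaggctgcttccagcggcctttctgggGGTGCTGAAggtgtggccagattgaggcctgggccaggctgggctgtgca
Tex44, chr1:86442175-86442266, GGAA repeat: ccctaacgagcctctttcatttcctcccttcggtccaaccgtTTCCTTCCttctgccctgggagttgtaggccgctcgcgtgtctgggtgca
Pdzrn3, chr6:101385409-101385500, SOX: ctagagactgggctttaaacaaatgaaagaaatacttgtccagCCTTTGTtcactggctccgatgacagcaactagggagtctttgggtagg
Tex44, a second site, chr1:86434653-86434744, GC box: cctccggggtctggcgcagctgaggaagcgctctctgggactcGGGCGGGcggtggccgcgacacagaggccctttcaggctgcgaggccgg
Chd2, chr7:73618306-73618397, YY1: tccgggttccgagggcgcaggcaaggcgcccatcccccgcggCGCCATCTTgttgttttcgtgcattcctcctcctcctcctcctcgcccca
The AP-1 match at Zfp239 began 67 bases from the replicate 1 summit and 39 bases from the replicate 2 summit. The matches at the Tex44 sites lay farther off, at -233 and 356 bases from the summits of replicates 1 and 2 at the first and at 369 and -405 bases at the second (negative before the summit), so those stretches lie under neither summit. The 6 stretches share no motif, and each is a letter match, not a shown binding event.

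The strongest sites next to genes of the lists described below that held such a motif are shown under the gene they lie nearest to, in the same format. A site of Myc that ranked above that of Sox11 is left out, since its motif lay outside the shared stretch:
Sox10, chr15:79192962-79193053, GC box and SOX: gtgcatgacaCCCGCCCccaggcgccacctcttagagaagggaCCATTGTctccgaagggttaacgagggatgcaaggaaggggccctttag
Erbb4, chr1:69124297-69124388, AP-1: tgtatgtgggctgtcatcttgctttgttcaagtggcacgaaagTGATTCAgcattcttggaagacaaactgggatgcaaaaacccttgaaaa
Olig1, chr16:91305321-91305412, GC box: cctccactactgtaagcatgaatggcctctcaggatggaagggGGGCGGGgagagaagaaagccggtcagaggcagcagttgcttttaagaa
Olig2, chr16:91191996-91192087, SOX: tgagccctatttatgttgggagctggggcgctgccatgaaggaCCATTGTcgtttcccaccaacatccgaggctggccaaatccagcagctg
Sox11, chr12:27575969-27576060, homeobox: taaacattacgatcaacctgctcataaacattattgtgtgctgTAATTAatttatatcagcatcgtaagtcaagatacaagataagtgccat
The SOX match at Sox10 began 71 bases before the replicate 1 summit and 62 bases before the replicate 2 summit. It lies inside an enhancer that RefSeq annotates for Sox10, described below. The SOX match at Olig2 began 154 bases after the replicate 1 summit and 350 bases before the replicate 2 summit, so that stretch lies under neither summit.

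The signal behind these sites was counted in fragments at the peak summit. The fold is the fragments plus 1 over the background plus 1. A fold of 6.19 in replicate 1 stood for 13 fragments over a library background of 1.26, and a fold of 6.24 in replicate 2 for 18 fragments over 2.04; these were the smallest folds that could pass. Counting error alone gave these weakest folds 95% intervals of 3.50 to 10.3 and 3.83 to 9.67. Of all peaks, 42.1% in replicate 1 (13418 of 31909) and 38.5% in replicate 2 (14864 of 38580) passed the fold, length and control filters. Of the intergenic peaks alone, 24.3% (2122 of 8750) and 22.3% (2524 of 11330) passed, and most that did not had a fold of 6 or less (6557 and 8735).

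The untagged controls held few such sites. Their peak lists had 308 and 124 peaks, and the same fold, length and sharing rules gave 58 intergenic sites there, of which 31 were on assembled chromosomes and 27 on unplaced sequence or the mitochondrial genome. Of the Foxr2 p53LOF intergenic peaks, 100 in replicate 1 and 95 in replicate 2 overlapped a control peak and were removed, with folds up to 877 and 937. Only 1 member lay within 1 kb of a control peak, and 28 lay within 100 kb.

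Across the members the fold had a median of 8.39 in replicate 1 (quartiles 7.07 and 10.6) and 9.86 in replicate 2 (quartiles 7.88 and 13.1). It was higher in replicate 2 at 75.6% of sites, and Spearman's rho between the replicates was 0.64 over the 1721 sites, all of which were chosen by these same folds. Sites inside protein-coding genes had nearly the same medians, 7.95 and 9.86, whereas sites at protein-coding starts had medians of 10.2 and 11.5. The lower of the 2 folds was above 10 at 430 members and above 20 at 38. The shared stretch had a median length of 1429 bp (18 to 6736 bp), against 1862 bp at protein-coding starts.

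**Figure D1:**
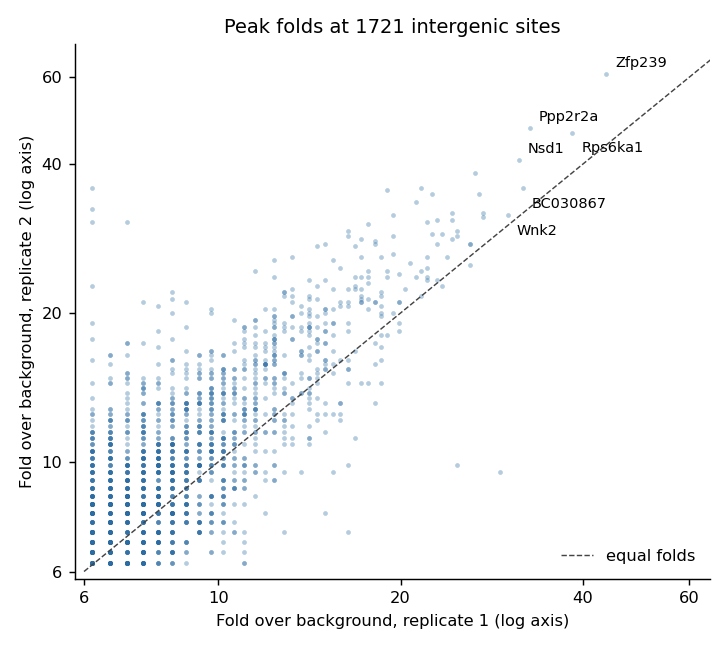
Fold over background in replicate 1 (horizontal, log axis) against replicate 2 (vertical, log axis) at each of the 1721 intergenic sites, with the 6 sites of highest lower fold named by their nearest protein-coding gene. Most points lie above the dashed line of equal folds (75.6% of sites), and Zfp239 stands at the top with folds of 43.7 and 60.8.

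The summits of the 2 replicates, which the rule did not use, lay a median of 93 bp apart at the members (quartiles 33 and 369 bp), and within 100 bp of each other at 51.8% of them. The median was 107 bp at sites inside genes and 83 bp at protein-coding starts. At 97 members at least 1 summit fell outside the shared stretch. Another member shared the replicate 1 peak at 14 members and the replicate 2 peak at 51, so those are not separate measurements in that replicate.

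The 15 strongest intergenic sites lay near genes of varied function. The strongest was 15.6 kb downstream of the start of Zfp239, a zinc finger gene (chr6:117878652-117881418). It had a fold of 43.7 in replicate 1 (98 fragments, counting interval 35.6 to 53.2) and 60.8 in replicate 2 (184 fragments, 52.4 to 70.2). It covered the start of the RefSeq long noncoding RNA Gm38882, which GENCODE M21 does not place there, so by RefSeq it lies at a start.

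The second was 22.1 kb upstream of Rps6ka1, which encodes the kinase RSK1 downstream of ERK (chr4:133909936-133911598), with folds of 38.4 and 46.3. The site of Ppp2r2a, a regulatory subunit of protein phosphatase 2A, had folds of 32.7 and 47.3, and that of BC030867, 2.11 kb upstream of its start, had 31.8 and 35.8. Nsd1, a histone H3 lysine methyltransferase, followed with 31.4 and 40.7, and the kinase gene Wnk2 with 30.05 and 31.5. In all 6 the replicate 2 fold was the higher.

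Next came the sites of Klf14, a Krüppel-like transcription factor (27.4 and 31.9, within the noncoding gene Lncpint), and Eef1a1, translation elongation factor 1 alpha (27.4 and 31.2). Tex44 (27.0 and 34.8) lay at the RefSeq start of the noncoding RNA Gm32700, and the predicted gene Gm10260 had 26.5 and 38.4. The sites of Rpp21, a subunit of ribonuclease P, and Wee1, the kinase that restrains CDK1, had the same pair of folds, 26.1 and 27.6. The remaining 3 were near the metalloprotease gene Adamts6 (26.1 and 24.97), Creld2 (24.7 and 29.2, its replicate 1 peak shared with another member) and the ubiquitin ligase gene Pdzrn3 (24.7 and 28.6). Among the 15, Adamts6 was the only site with the higher fold in replicate 1, and its nearest protein-coding start was the most distant, at 210.5 kb.

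The threshold fell between close values. The weakest members, among 202 with the lowest replicate 1 fold that could pass, included sites of Ncoa2, a nuclear receptor coactivator, and Pigm, an enzyme of GPI anchor synthesis, both with folds of 6.19 and 6.24. The pairs just outside were near Cdkn1b, with folds of 18.1 and 5.91, and Atp11b, with 14.6 and 5.91, and so failed in replicate 2 alone. In all, 3934 intergenic pairs of overlapping peaks had a lower fold of at most 6, and 509 members (29.6%) had a lower fold under 7.

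The DNA at the members differed from the rest of the intergenic space. The 200 bp centre windows had a median GC content of 48% (quartiles 43% and 53%) at the 1720 sites on assembled chromosomes, against 40.5% in 769100 tiled windows of the same space. Sites inside genes were alike (47.5%), and sites at protein-coding starts were richer (63%). Repeats that are soft-masked in the genome took 13.1% of the bases at members and 42.7% in the tiled windows. CpG-rich windows (GC of at least 50% and an observed to expected CpG ratio of at least 0.6) made up 7.73% of members, 4.31% of sites inside genes, 67.3% of sites at protein-coding starts and 0.489% of the tiled windows.

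Sequences of SOX, AP-1, NFI and CTCF factors were more frequent at the member centres than in intergenic DNA of the same GC content, but for the combined SOX heptamers and the CTCF core this did not hold in windows around the summits. The pair of inverted SOX cores (ACAANNNNNNNNTTGT) was in 37 of 1720 windows, or 2.15% (95% interval 1.56% to 2.95%), against 0.319% in GC-weighted tiles, a ratio of 6.75. The share was 1.98% at sites inside genes, 0.237% at protein-coding starts and 0.504% in unweighted tiles. The single SOX heptamers CCATTGT and CCTTTGT, which can overlap the pair by their TTGT, were in 5.23% and 7.62% of the windows, against 3.31% and 4.26% in GC-weighted tiles. Together they marked 12.4% of windows at members (10.9% to 14.0%), 10.2% at sites inside genes (8.90% to 11.8%, an overlapping interval) and 4.83% at protein-coding starts.

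The AP-1 heptamer (TGANTCA) was in 181 windows, or 10.5% (9.16% to 12.1%), against 5.35% in GC-weighted tiles, 8.85% at sites inside genes and 2.498% at protein-coding starts. The NFI palindrome (TGGCNNNNNGCCA) was in 30 windows, or 1.74% (1.22% to 2.48%), against 0.459% in the tiles. The core of the CTCF element (CCNNNAGGGGGC), the site of an insulator protein, was in 16 windows, or 0.93% (0.573% to 1.51%), against 0.167%. The cyclic AMP response element (TGACGTCA) was in 12 windows (0.698%), against 0.18% in the tiles and 1.29% at protein-coding starts. These 4 sequences thus had ratios to the GC-weighted tiles of 1.97, 3.80, 5.55 and 3.87.

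Windows of the same width around the replicate 1 and replicate 2 summits gave lower shares of these SOX, CTCF, AP-1 and NFI sequences. The SOX heptamers together were in 7.38% and 7.62% of these windows, against 7.42% in GC-weighted tiles, and CCATTGT alone was in 2.09% and 2.67%, below its 3.31% in the tiles. CCTTTGT alone was in 5.47% and 5.17%, above its 4.26%. The CTCF core was in 0.116% around both summits, against 0.167% in the tiles. The cyclic AMP response element also fell, to 0.349% (0.16% to 0.759%) and 0.233% (0.0905% to 0.596%). Both of its intervals hold its tile share of 0.18%. The SOX inverted pair (0.988% and 0.814%), AP-1 (7.09% and 6.28%) and the NFI palindrome (0.64% around both) lay between their tile share and their centre share. The tile share lies inside the interval of NFI at both summits (0.357% to 1.14%), and at the replicate 2 summit inside those of AP-1 (5.23% to 7.53%), CCATTGT (2.01% to 3.55%) and CCTTTGT (4.22% to 6.32%). The homeobox sequence TAATTA was in more windows around the summits (5.64% and 6.40%) than at the centres (4.59%), against 3.77% in GC-weighted tiles and 7.49% in unweighted ones, so its direction also turned with the weighting.

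Among E-boxes, bound by basic helix-loop-helix factors, CACGTG, the MYC type, was in 4.36% against 2.37% in GC-weighted tiles. CATATG, the OLIG type, was less frequent at members than in GC-weighted tiles, 3.43% (2.67% to 4.40%) against 6.19%. Tiles were weighted for GC content only, here and for every motif. Repeats took 42.7% of tiled bases and 13.1% of bases at members, and their part in these shares was not tested.

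The forkhead sequence TGTTTAC was in 3.08% of member windows (2.36% to 4.01%) against 2.30% in GC-weighted tiles and 2.995% in unweighted ones. The ETS sequence of the ELK type (CCGGAAGT) was in 5 member windows, or 0.291% (0.124% to 0.679%), against 3.58% at protein-coding starts and 0.171% in GC-weighted tiles. The ETS1 type (CAGGAAGT), which shares GGAAGT with it, was in 2.21% against 1.54%. The promoter sequences of SP/KLF factors (GGGCGGG) and YY1 (AAGATGGCG) were in 5.58% and 0.349% of member windows, against 25.9% and 1.71% at protein-coding starts. In GC-weighted tiles the GC box was in 2.92%, a ratio of 1.91 (1.57 to 2.32), and it stayed above that share around both summits, with 4.42% and 4.53%. YY1 was in 1.51% of GC-weighted tiles but 0.254% of unweighted ones, so its direction turned with the weighting. ZBTB33 (TCTCGCGAG) was in 0 of 1720 windows, with an upper 95% limit of 0.223%, and 53.7% of windows (923) held none of the 22 sequences.

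**Figure D2:**
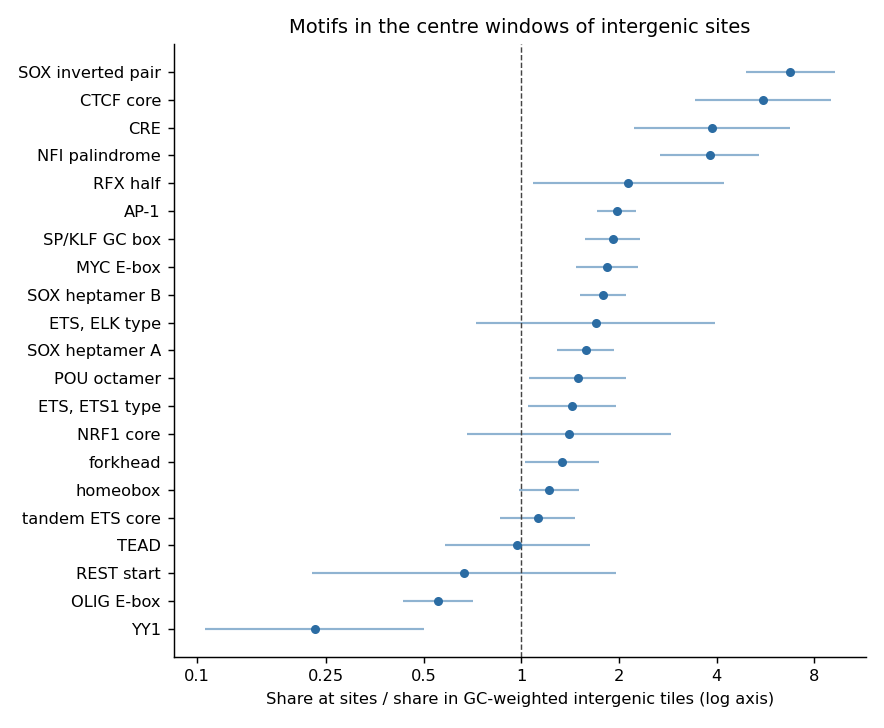
Share of the 1720 centre windows that hold each motif divided by its share in GC-weighted tiles of intergenic space (horizontal, log axis), with 95% Wilson intervals of the sites' share as bars and the dashed line at equal shares. SOX heptamers A and B are CCATTGT and CCTTTGT and the tandem ETS core is GGAAGGAA. The SOX inverted pair stands highest at 6.75, and the intervals of YY1 and the OLIG E-box lie below 1 (for YY1 this does not hold against unweighted tiles, 0.349% against 0.254%).

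The AP-1, NFI, SOX and CTCF sequences were more frequent beside the summits than under them. Counted in bins of 100 bp, AP-1 was in a mean of 64.0 sites per bin within 100 bp of the replicate 1 summit and in 100.2 per bin at 100 to 300 bp from it. Around the replicate 2 summit these means were 56.5 and 107. Farther out, at 600 to 1000 bp, they were 58.5 and 53.4, so AP-1 at the summits was near its level in the flanks.

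The NFI palindrome gave 5.5 sites per bin within 100 bp of the replicate 1 summit and 18.8 at 100 to 300 bp (6 and 16.8 around replicate 2). The SOX inverted pair gave 8.5 and 18.5 (7.5 and 20.8), and the CTCF core gave 2.5 and 10.8 (2 and 9.75). The SP/KLF GC box also dipped, with 40.5 and 54 (42.5 and 58.5). The homeobox sequence TAATTA had no such dip, with 49 and 43.8 per bin around replicate 1 and 57 and 43.5 around replicate 2. Around the centre of the shared stretch there was no dip either for AP-1, with 96 and 89.8 per bin. Sites inside genes had the same dip for AP-1, from 47.5 to 98.5 around replicate 1 and from 57 to 103.2 around replicate 2. At protein-coding starts AP-1 went from 107.5 to 143.2 and from 91 to 154.

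**Figure D3:**
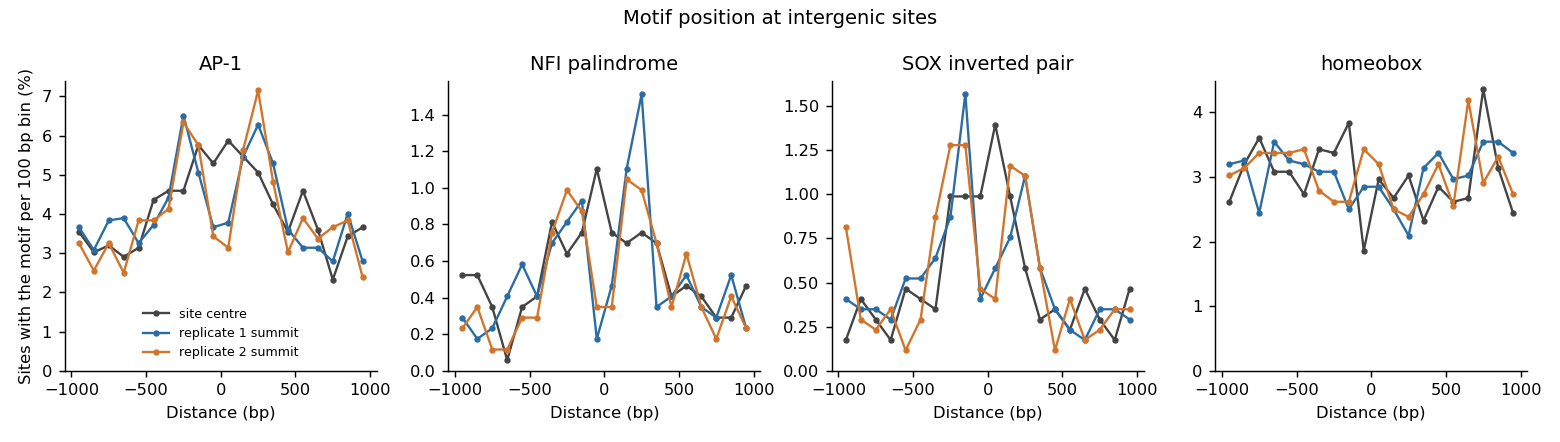
Percent of the 1720 sites with a motif in each 100 bp bin (vertical) by distance from the site centre (grey), the replicate 1 summit (blue) and the replicate 2 summit (orange), for AP-1, NFI, the SOX inverted pair and the homeobox sequence. AP-1, NFI and the SOX pair are low at both summits and highest 100 to 300 bp to either side, while the homeobox sequence is not.

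Where a member held exactly 1 AP-1 heptamer (504 sites), the median distance to it was 312 bp from the replicate 1 summit and 305 bp from the replicate 2 summit. The sites with 1 NFI palindrome (126) and 1 SOX pair (135) had median distances of 270 bp and 262 bp from the replicate 1 summit. Among the 891 sites whose summits lay within 100 bp of each other, the number of sites with AP-1 per bin within 100 bp of the replicate 1 summit was 0.504 of the level at 100 to 300 bp, against 0.638 over all members. Around the replicate 2 summit the change was smaller, with 0.487 against 0.528.

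Stronger members were longer. Ordered by the lower fold and split into 4 sets of 430 sites, the weakest set had a median length of 1086 bp and the strongest 2095 bp, and the median distance between summits was 139 and 50 bp. AP-1 was in 10.2% (7.71% to 13.5%) of the weakest set and 9.53% (7.11% to 12.7%) of the strongest, and the median GC content was 48.5% and 48%. The GC box was in 4.88% (3.22% to 7.35%) and 8.14% (5.91% to 11.1%), and for both sequences the intervals of the weakest and strongest sets overlap.

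The members lay closer to genes than intergenic space as a whole. Their median distance to the nearest protein-coding start was 36.6 kb (quartiles 12.5 and 102.1 kb), against 114.7 kb in the tiled windows. Within 10 kb of such a start lay 21.3% of members and 9.93% of windows, and beyond 500 kb lay 45 members (2.62%) and 15.8% of windows. Of the members, 1055 (61.3%) were upstream of the nearest protein-coding start, as were 58.8% of the windows. The 3 members farthest from any GENCODE M21 start were nearest to Ndufa4 (325.5 kb from any such start, folds 17.7 and 21.4), Psat1 (306.8 kb, 9.72 and 14.8) and Intu (246.5 kb, 6.63 and 6.90). In the same order, the nearest RefSeq starts lay 330.8, 31.0 and 356.9 kb away.

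Noncoding genes took a part of the intergenic sites. 245 members (14.2%) overlapped the body of a noncoding gene, against 10.2% of tiled windows, and long intergenic noncoding RNA genes held 158 of them. RefSeq, an annotation that the rule did not use, put a transcript start within 1 kb of 157 members (9.12%), against 1.12% of tiled windows. The members (median 1429 bp) are wider than the 200 bp windows, so both comparisons with windows are at unlike widths. Of these 157 starts, 131 belonged to long noncoding RNAs and 22 to messenger RNAs. In the 172 strongest sites the share was 11.6% and in the other members 8.84%.

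The members were unevenly spread over the chromosomes. Over all assembled chromosomes there were 1.11 sites per Mb of intergenic space. Chromosome 13 had 2.83 (204 sites, counting interval 2.46 to 3.25), chromosome 11 had 2.70 (158 sites, 2.29 to 3.15) and chromosome 15 had 2.14 (126 sites, 1.78 to 2.55). The X chromosome had 0.0695 (8 sites, 0.03 to 0.137), and the other autosomes ran from 0.639 on chromosome 9 to 1.52 on chromosome 6. Chromosomes 11, 13 and 15 together held 28.4% of members in 12.3% of the space, 24.1% of sites inside genes and 19.4% of sites at protein-coding starts. They also held 22.5% of all replicate 1 peaks and 23.5% of all replicate 2 peaks, before any filter. The copy number of each chromosome in the line was not measured here, and its part in these counts was not tested.

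**Figure D4:**
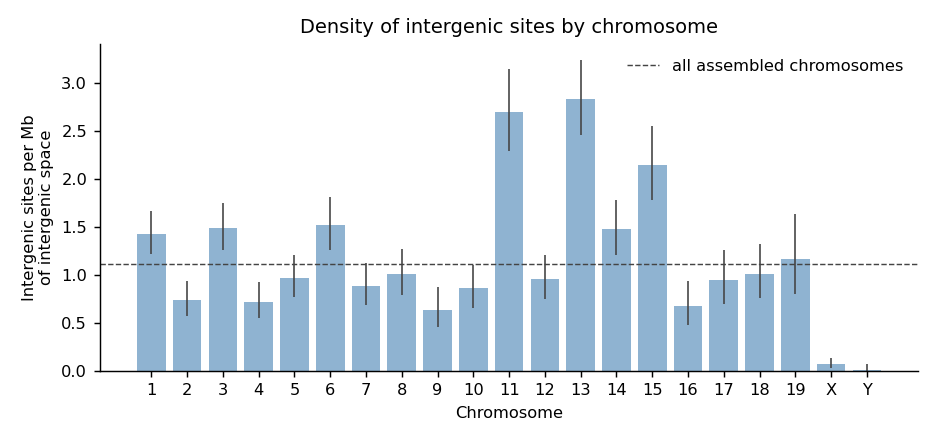
Intergenic sites per Mb of intergenic space (vertical) on each chromosome (horizontal), with exact Poisson 95% intervals of the counts as bars and the density over all assembled chromosomes as a dashed line. Chromosomes 11, 13 and 15 stand above the line with 2.70, 2.83 and 2.14, and X and Y stand near 0.

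Some enhancers known from mouse embryos coincided with members. This comparison was chosen after values had been seen. RefSeq annotates 306 intergenic enhancers from the VISTA collection, in which DNA is tested for activity in transgenic mouse embryos, and 36 of them (11.8%, interval 8.62% to 15.9%) overlapped a member. Of all 497 intergenic RefSeq enhancers, whose median length is 1810 bp, 42 (8.45%) did. Of tiled windows of that length in intergenic space, 0.38% (2809 of 739981) overlapped a member. The VISTA enhancers alone are longer than these windows, with a median of 2368 bp. Enhancers chosen for testing are not a random draw of the genome, so the difference describes these elements only.

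By tissue, the share was 16.1% (14 of 87) for enhancers active in forebrain, 16.5% (13 of 79) in midbrain, 21.6% (16 of 74) in hindbrain and 13.8% (8 of 58, interval 7.16% to 24.9%) in neural tube. It was 8.60% (8 of 93) for limb and 7.94% (5 of 63) for heart. The median length was 2575 bp for enhancers active in at least 1 of forebrain, midbrain, hindbrain and neural tube. It was 2090 bp for the others, and the part of length in these shares was not tested. The first set overlapped members in 14.4% (9.69% to 20.8%) and the others in 9.15% (5.53% to 14.8%), and these intervals overlap. The strongest such members were those of Wee1 (an enhancer of heart and dorsal root ganglion), Psmg4 (24.3 and 30.9; midbrain, hindbrain, limb and face) and Gng2 (17.7 and 23.7; midbrain and hindbrain). A forebrain enhancer 125.2 kb from the nearest protein-coding start, that of Klf7, had folds of 16.8 and 23.7.

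Upstream of Sox10, the gene of a transcription factor of oligodendrocyte differentiation and of neural crest glia, 4 members in a row covered 4 annotated Sox10 enhancers. This locus was also singled out after its values were seen. The site at chr15:79191984-79194862 (49 and 78 fragments, folds 22.1 and 26.0) covered MCS4, an element RefSeq records as active in oligodendrocytes, ganglia and melanoblasts. The site at chr15:79199877-79203792 (50 and 105 fragments, folds 22.5 and 34.8) covered MCS5, recorded for oligodendrocytes and ganglia. The third, at chr15:79211749-79214345, covered MCS7 with folds of 11.5 and 13.5, and the fourth, at chr15:79222661-79225241, covered MCS9, an enhancer of Schwann cells, with folds of 7.95 and 7.23. The 2 sites nearest Sox10 were stronger in both replicates than the 2 farther ones.

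The midpoints of the summits lay 27.8, 37.1, 47.7 and 59.4 kb from the Sox10 start. By distance alone, 3 of the 4 sites are nearest to the start of Pick1, a PDZ domain protein, so here the nearest gene is not the gene that the enhancers are recorded for. Of 7 intergenic RefSeq enhancers around these sites, 5 overlapped a member.

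**Figure D5:**
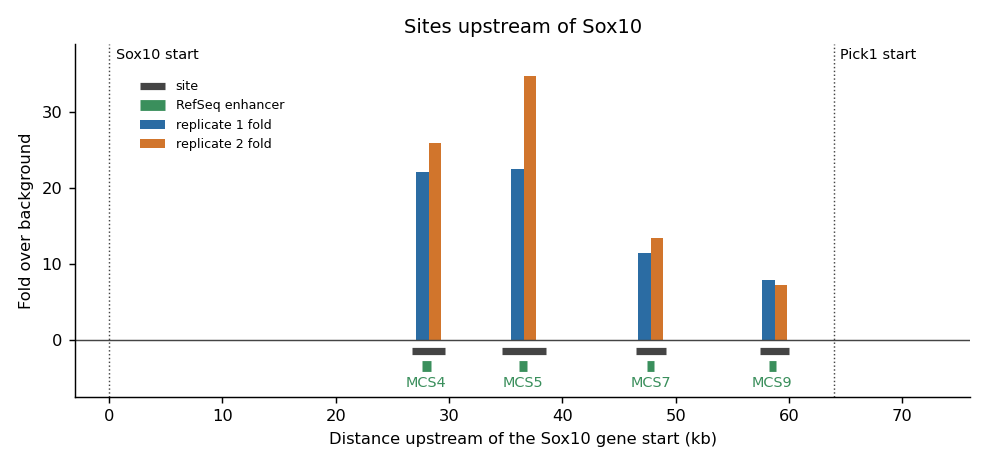
Fold over background in replicate 1 (blue) and replicate 2 (orange) at the 4 intergenic sites upstream of Sox10, placed by distance from the Sox10 start in kb (horizontal), with the sites as black lines and RefSeq enhancers as green boxes below. Each site spans one of the enhancers MCS4, MCS5, MCS7 and MCS9, and the folds are highest at MCS4 (22.1 and 26.0) and MCS5 (22.5 and 34.8).

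Over all 21992 protein-coding gene names, 5.76% (1267) had the nearest start to at least 1 intergenic site. Most had 1 site (970) and 15 had 5 or more. Gaps between protein-coding genes that held a member were wider (median 102.5 kb) than those that held none (15.3 kb). How far gap width bears on the lists below was not tested. The lists were chosen with results of these data known, and their counts are descriptions. In them a gene has a member where its start is the nearest protein-coding start, at whatever distance.

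Of 15 genes of the oligodendroglial lineage, 5 had a member. Olig1, a basic helix-loop-helix factor, had 2 sites downstream of its start, the stronger with folds of 14.1 and 18.7 (chr16:91302659-91306798, 32.9 kb away) and the other with 6.63 and 6.24. Olig2, the related factor that specifies oligodendrocyte precursors, had 1 site 32.0 kb upstream with 11.05 and 18.7 and 1 site 4.77 kb downstream with 6.63 and 7.56. The receptor gene Pdgfra, a marker of oligodendrocyte precursors, had a site 184.3 kb downstream with 14.1 and 18.4. Mog, a myelin protein, had 1 with 7.95 and 10.2, and Sox10 had the site at MCS4 given above.

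Of 18 astroglial and radial glial genes, 5 had a member, all with a lower fold under 10. Id3, a target of BMP signalling, had folds of 9.72 and 10.2, and Slc1a3, a glutamate transporter, 8.84 and 10.5. The transcription factor genes Sox9 (2 sites, the stronger 7.51 and 9.20), Nfix (6.63 and 8.21) and Hes1 (2 sites, the stronger 6.63 and 7.56) had the others. The median lower fold was 7.07 over the 7 astroglial sites (6.19 to 9.72) and 11.05 over the 7 oligodendroglial ones (6.24 to 22.1). It was 7.95 over all members. These ranges overlap, the folds chose the members, and the sites of Olig1 and Olig2 lie at the same locus, so the medians are a description only.

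Of 18 SOX genes, 7 had 22 members. Sox2, a factor of neural progenitors, had 8, the strongest 203.6 kb upstream (chr3:34440089-34446758, 6670 bp) with folds of 19.4 and 28.6. A Sox2 site 238.2 kb upstream, with 6.63 and 8.54, overlapped a VISTA enhancer active in forebrain. Sox4 had 4 sites, the strongest only 2.75 kb upstream with 10.6 and 14.1. For Sox2 and for Sox4, 2 of the sites share a replicate 1 peak. Sox11 and Sox6 had 3 each, with up to 9.28 and 16.4, and 9.28 and 14.8, where 2 of the Sox6 sites share a replicate 2 peak, and Sox13 had 1 with 8.39 and 9.53.

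Of 18 genes of ganglionic eminence patterning and interneurons, 2 had a member: Erbb4, a neuregulin receptor, with 17.2 and 22.3, and Maf with 2 sites (the stronger 7.51 and 12.5). Of 12 dorsal telencephalic genes, 1 did, the proneural gene Neurog1 (2 sites, the stronger 11.05 and 9.86).

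Of 12 feedback inhibitors of MAPK signalling, 6 had a member. Spry2, an inhibitor of receptor tyrosine kinase signalling, had 3, with folds of 12.4 and 16.4, 14.1 and 11.8, and 6.63 and 7.56. Spred2, which restrains RAS to RAF signalling, had 1 site 3.07 kb upstream with 11.05 and 18.7. The ERK phosphatase genes Dusp4 (7.95 and 10.8) and Dusp6 (7.51 and 9.86), Errfi1 (7.51 and 8.21), an inhibitor of EGFR, and Spry4 (6.63 and 10.8) had 1 each.

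Of 13 AP-1 and immediate early genes, 3 had a member: Fos with 3 (the strongest 9.28 and 11.8), Myc with 3 and Egr1 with 1 (7.51 and 9.53). The strongest Myc sites, 54.6 and 55.7 kb downstream in the neighbourhood of the noncoding gene Pvt1, had 16.3 and 9.86, and 11.5 and 9.86. Both share 1 replicate 2 peak, so they are not separate in that replicate, and the summits of the first lay 5887 bp apart, both outside its shared stretch. One site of Fos overlapped a VISTA enhancer recorded for heart. Of 26 ETS genes, 4 had a member, all with a lower fold under 10: Ets1 (9.28 and 9.20), Ets2 (8.39 and 8.21), Etv3 (7.51 and 9.53) and Etv1 (7.07 and 6.24). Of 16 growth factor receptors, Erbb4, Pdgfra and Fgfr1 (2 sites that share a replicate 2 peak, the stronger 7.51 and 8.21) had members.

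Some members lay in groups. Of 19057 gaps between protein-coding genes, 1191 held a member, 874 of them a single one, and 107 gaps with 3 or more held 423 members. The gap between Rps24, a ribosomal protein gene, and Zmiz1, a transcriptional coregulator, held the most, 10 sites in 962.2 kb of chromosome 14, with lower folds up to 15.5. Gaps with 8 sites lay between Kif2a, a kinesin, and Ndufaf2, a complex I assembly factor (980.6 kb, up to 15.5), between Sox2 and Atp11b (1102 kb, up to 14.6), and between Zfp608 and Gramd3 (1408 kb, up to 14.1). Of 3 gaps with 7, the shortest lay between the kinase gene Map3k1 and Ankrd55 on chromosome 13 (479.5 kb, up to 18.6). Neighbouring members lay a median of 433.5 kb apart, and 133 of 1699 neighbouring pairs (7.83%) were within 10 kb of each other.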

How the data were processed

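V5-tag CUT&RUN was measured in 2 Foxr2 p53LOF and 2 control libraries. The authors trimmed reads with Trimmomatic 0.39, aligned them to mm10 with BWA 0.7.17, removed duplicates with Picard 2.26.6 and called peaks in each library with MACS2 2.2.7.1. The deposited peak lists hold a fold over background at the summit (a ratio), a −log10 p-value, a −log10 q-value and an integer score; every peak with fold above 6 that was used had a −log10 q of at least 7.43, so no further filter on q was made. The study's methods give 1 approximate number of reads for every library, and the reads obtained in each library were not used here. The steps between the deposited folds gave the fragments at a summit (tolerance 0.02 of a fragment), and intervals on them cover counting error only.

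Sites were the bases shared by filtered peaks of both Foxr2 p53LOF replicates (fold above 6, length under 10000 bp, no overlap of 10 bp with a control peak). Position was read from GENCODE M21, and sequence, RefSeq transcript starts and RefSeq enhancers from GRCm38.p6. Motifs were exact letter matches on both strands in windows of 100 bp on each side of the site centre. The background was 1 in 10 of the 200 bp windows of the same intergenic space, also weighted to the GC content of the sites in bins of 2%. It was not matched for repeat content. Intervals of shares are 95% Wilson intervals. Python 3.11.15 with numpy 2.4.6, pandas 2.3.3 and scipy 1.17.1 was used, and the steps were tested on simulated data.

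The members, motifs and gene lists were chosen with earlier results of these data known, and some genes of the lists and 1 motif are not reported here. The genes named are the nearest to the 15 sites with the highest lower fold, genes of fixed lists, genes at the 5 gaps with most sites, at the 3 sites farthest from a start and at the 2 just inside the threshold. No test between groups was made, since 2 libraries against 2 cannot give an exact two-sided permutation p below 0.333. Alternatives were another fold minimum, overlap, control, distance, gene body and length rule, each replicate alone, other windows and windows without repeats.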

Additional observations from a re-analysis of the deposited data

How the results depend on the processing

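Of 123 values recomputed under other settings, 95 were called close and 28 moved; none was a test. Close meant within 1.5 times for a number of sites or genes, within the reported 95% interval for a share or density, and within 1 SD between replicates for GC content and the AP-1 ratio. With a minimum fold of 10 the intergenic sites fell to 430, 9.08% of all sites, and the genes with the nearest start to 374. Their share was 11.2% over 5 kb from every start and 12.4% outside gene bodies of any biotype. With 1 replicate alone the number was 2122 to 2524, the share 15.8% to 16.98%, the median GC content 47% to 48% and the SOX heptamers 10.8% to 11.1%. In windows around the replicate 1 and 2 summits the GC content was 47% in both, the SOX heptamers 7.38% and 7.62%, AP-1 7.09% and 6.28%, and the ELK-type sequence 0.116% around replicate 2. Windows without repeats had a GC content of 50%. In the same windows around the summits the SOX inverted pair was 0.988% and 0.814% and the NFI palindrome 0.64% in both. The dip of AP-1 at the summits stayed below 1 in all 10 settings chosen after seeing the data (0.46 to 0.699). Leaving out RefSeq starts, also chosen then, left 1564 sites. The excess on chromosome 13 ran from 2.40 to 3.69 times the density over all chromosomes, and the share of VISTA enhancers on a member from 5.88% (minimum fold of 10) to 16.3%. The causes were not tested.

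At the threshold the folds rest on 13 and 18 fragments, and differences among the weakest members were not tested. No paired analysis was possible because the control peak lists hold no value at the members: by the rule, no control peak overlaps one by 10 bp or more.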
